A study of Mus musculus with 2 samples.

Results

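The cadherin and claudin genes are the members described here: 45 of the 32285 genes in the RNA matrix carried a symbol made of Cdh or Cldn and a number, Cdh5 being left out because it is a marker of endothelial cells. They comprised 22 cadherins and 23 claudins. Their levels were followed across the cell types of the mouse testis at E14.5, in mid-gestation. Whole testes, frozen before nuclei were taken, came from embryos of a cross of Nr5a1-cre with Rosa-tdTomato mice, in which a fluorescent reporter is switched on in cells with a history of Nr5a1-driven Cre, and every nucleus came from this genotype, with no untreated or mutant group beside it. Each assay had 1 library: RNA and open chromatin (ATAC) were read from the same nuclei, so that the 9833 barcodes of the RNA matrix were all found in the chromatin fragments. With 1 library there was no replicate, no p-value was computed, and every interval below is a 95% interval for counting error only. Differences between cell types are therefore descriptions of this library.

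Cadherins are calcium-dependent adhesion proteins of the cell surface that bind the same or a related cadherin on the neighbouring cell and tie it, through catenins, to the actin skeleton. Classical type I cadherins (E-, N-, P- and R-cadherin, the genes Cdh1, Cdh2, Cdh3 and Cdh4) and type II cadherins (Cdh6 to Cdh12, Cdh18 to Cdh20, Cdh22 and Cdh24, with Cdh11 the best-known one of mesenchyme) are used in different combinations by cells that sort apart in the embryo. Claudins are the membrane proteins that form the strands of tight junctions, and Cldn11 later builds the barrier between Sertoli cells in the seminiferous tubules. In the fetal testis, germ cells and Sertoli cells are enclosed in cords, and around them lies the interstitium with Leydig cells, their progenitors, contractile peritubular cells and vessels.

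After filtering and doublet removal 7198 nuclei remained, with a median of 7948 unique molecular identifiers (UMIs, counted RNA molecules) and a range of 706 to 705765. They were placed in 11 classes by marker genes, with the members and Cdh5 kept out of the genes used for RNA clustering. The classes held 3280 progenitor/contractile-like, 974 germ-like, 830 Sertoli-like, 794 Leydig-like, 562 surface epithelium-like, 394 mesonephric mesenchyme-like, 95 endothelial-like, 68 pericyte-like, 68 immune-like and 46 erythroid-like nuclei, and 87 nuclei of a cluster led by Pax8. All 6 markers of the Sertoli-like, Leydig-like, germ-like, endothelial-like, immune-like and erythroid-like classes were highest in their own class, as were all 7 of the pericyte-like and all 3 of the mesonephric mesenchyme-like class. Of the 6 surface epithelium and 6 progenitor markers 4 each were highest in their own class, and of the 6 contractile markers 0 were highest in the progenitor/contractile-like class. The classes were named by these same markers, some of which the study had reported from this library. These counts are therefore not separate evidence for the names. The largest class pooled a mixed cluster of 2525 nuclei, which scored highest for progenitor markers but had the contractile gene Myh11 among its leading genes, with a progenitor-like cluster of 755 nuclei led by cell cycle genes. The Pax8 cluster scored for both supporting-cell and mesonephric duct markers and was left without a cell type name. Levels are given as UMIs of the gene per 1000000 UMIs of the class (CPM).

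Of the 45 members, 25 reached 50 UMIs over the kept nuclei and were compared, 18 had 1 to 49 UMIs and 2 had none. The compared members were 19 of the 22 cadherins and 6 of the 23 claudins. All members together gave 119489 UMIs, of which Cdh11 alone gave 64.4% and all claudins gave 2036. The summed member level differed widely between classes: it was 3532 CPM in mesonephric mesenchyme-like, 2619 CPM in surface epithelium-like and 2117 CPM in progenitor/contractile-like nuclei, against 851 CPM in germ-like, 698 CPM in Leydig-like and 445 CPM in erythroid-like nuclei. Without Cdh11 the order changed: the sums were 1202 CPM in the Pax8 cluster, 1001 CPM in Sertoli-like and 935 CPM in surface epithelium-like nuclei, 347 CPM in progenitor/contractile-like and 315 CPM in Leydig-like nuclei. The claudin sum was low everywhere, from 11.5 CPM in pericyte-like to 48.4 CPM in mesonephric mesenchyme-like nuclei.

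**Figure D1:**
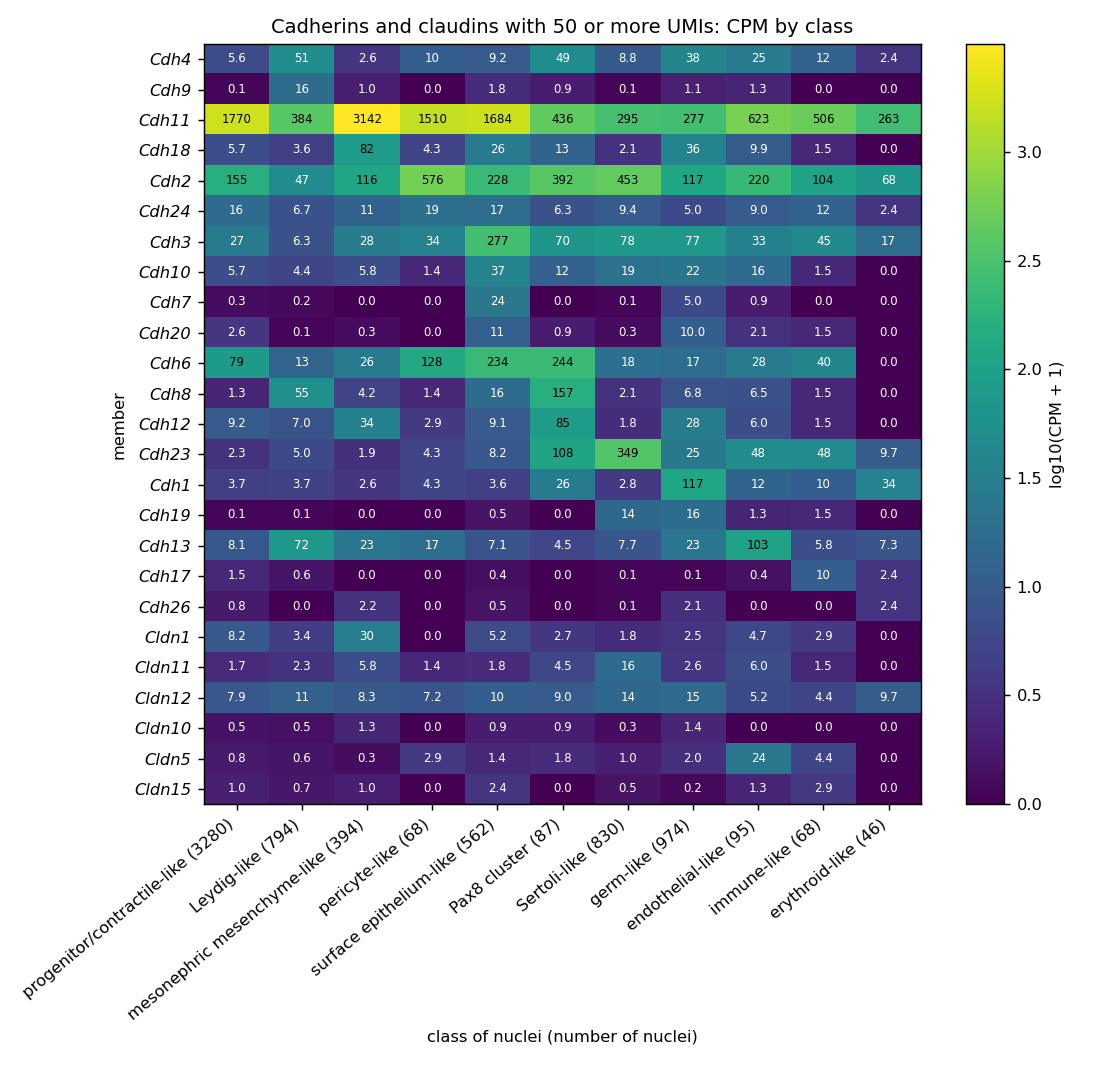
Heat map of the 25 compared members (rows) by class of nuclei (columns, with the number of nuclei); colour is log10(CPM + 1) and each cell prints the CPM. Cdh11 is bright in the mesenchymal and surface columns, whereas Cdh23, Cdh1, Cdh9, Cdh7 and Cldn5 each stand out in 1 column.

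The highest class of a member exceeded all other nuclei by at least 4-fold for 15 of the 25 compared members, 12 cadherins and 3 claudins. Among all 17046 genes with 50 UMIs or more the share was 28.4%, and among the 1896 of them at least as long as the median compared member (a gene span of 128 kb, against 25.0 kb for all tested genes) it was 43.1%. The 15 members were spread over 8 classes: 3 were highest in the Pax8 cluster, 2 each in Sertoli-like, germ-like, endothelial-like, mesonephric mesenchyme-like and surface epithelium-like nuclei, and 1 each in Leydig-like and immune-like nuclei. None of the 15 was highest in progenitor/contractile-like nuclei, the largest class. Only the class with the highest CPM was compared in this way. A member may therefore pass 4-fold in another class without being counted there. The split by class of all genes past 4-fold was not computed, so nothing is read from these counts by class. Cdh6, at 4.53-fold in the Pax8 cluster, lay just above the 4-fold limit. Cldn15 at 3.79-fold, on 2 UMIs in immune-like nuclei (0.448 to 14.3), Cdh11 at 3.46-fold and Cdh2 at 3.22-fold lay just below it.

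**Figure D2:**
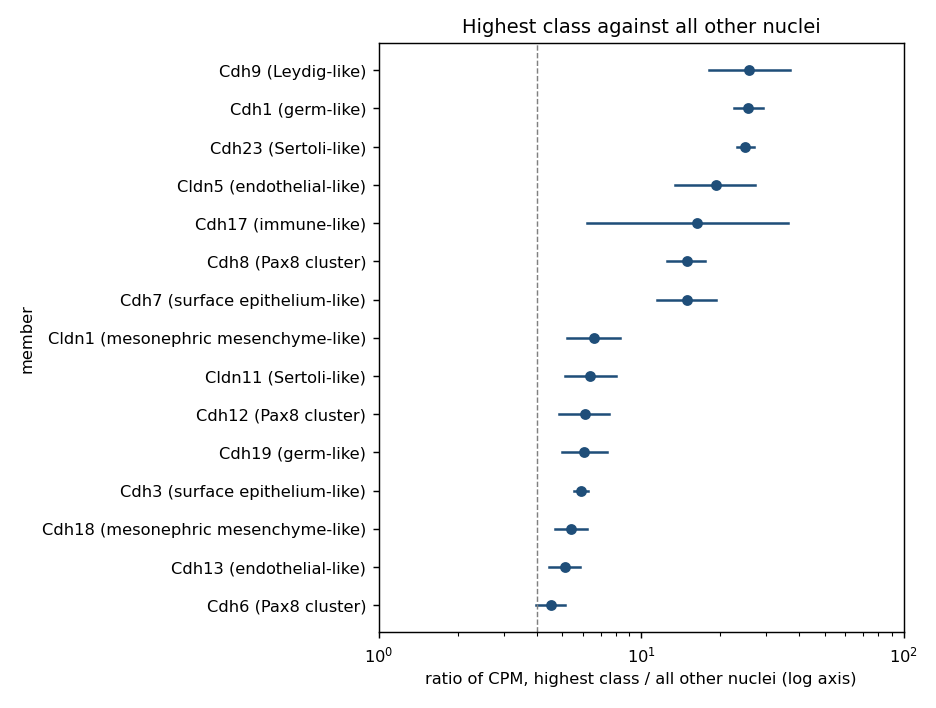
Ratio of CPM in the highest class to CPM in all other nuclei (log axis) for the 15 members past 4-fold (dashed line), with the highest class in brackets; points are ratios and bars 95% counting intervals. Cdh9, Cdh1 and Cdh23 lie near 25-fold, and Cdh17 has a wide bar, resting on 7 UMIs.

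In Sertoli-like nuclei the member furthest above the rest was Cdh23, the cadherin known from the tip links of inner-ear hair cells. Its level was 349 CPM in Sertoli-like nuclei and 14.0 CPM in all others, a ratio of 24.9 (95% interval 23.2 to 26.8). The next class, the Pax8 cluster, had 108 CPM, and the Sertoli-like level was 3.23 times as high (2.69 to 3.90). Of the Sertoli-like nuclei 93.4% held a Cdh23 UMI. Nuclei were also thinned to 2000 UMIs each, and those with fewer were left out, here 3 Sertoli-like and 3 Leydig-like nuclei. After thinning 53.0% of Sertoli-like nuclei held a UMI (49.5 to 56.4%), against 0.253% of Leydig-like nuclei (0.0306 to 0.910%). The median depth of Leydig-like nuclei before thinning, 9582 UMIs, was close to the 9833 of Sertoli-like nuclei. Germ-like nuclei had 25.3 CPM of Cdh23, but 2.44 CPM where the stricter automatic doublet threshold was used, and the ratio of Sertoli-like to all other nuclei was then 89.1. The gene spans chr10:60302748-60696490 on the minus strand (GRCm38), with Vsir and Gm17455 annotated on the opposite strand inside it.

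Cldn11, the claudin of Sertoli cell tight junctions, was also highest in Sertoli-like nuclei, but at a far lower level. It had 15.6 CPM there (153 UMIs) and 2.43 CPM elsewhere, a ratio of 6.41 (5.11 to 8.04), and 14.1% of Sertoli-like nuclei held a UMI. After thinning the share was 3.75% (2.56 to 5.28%), against 0.617% of germ-like nuclei. Cdh2, the N-cadherin gene of Sertoli and mesenchymal cells, was broader: it measured 576 CPM in pericyte-like, 453 CPM in Sertoli-like and 392 CPM in Pax8 cluster nuclei, and 47.2 CPM in Leydig-like nuclei. Pericyte-like nuclei exceeded Sertoli-like nuclei by 1.27-fold (1.14 to 1.41). Within the Sertoli-like class, a finer clustering (resolution 0.6) gave 596 nuclei with little Mki67, a proliferation gene, at 74.9 CPM and 234 nuclei with 388 CPM. Cdh23 was 400 CPM in the former and 274 CPM in the latter (ratio 1.46, 1.36 to 1.57), and Cdh11 went the other way, 206 against 426 CPM. Progenitor markers summed to 218 CPM in the former and 460 CPM in the latter, and the part of RNA from other cells in these differences was not tested.

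Sequences from Cdh23 and Cldn11 are shown first. Both Cdh23 peaks shown were at least 4-fold more open in the class with the most RNA, whereas another peak of the gene past that limit was most open in germ-like nuclei. Within 1 kb of its start, Cldn11 was 2.75 times as open in Sertoli-like nuclei as in the other large classes. That window is wider than the bases shown, which were not counted on their own. Capitals mark any match to 6 motifs searched on both strands: CACCTG (an E-box), AGATAA (a site of Gata factors), AAGGTCA (of orphan nuclear receptors), ACAATG (of Sox factors), GGGCGG (of Sp factors, called a GC box below) and TATAAA (the box of core promoters). The first Cdh23 window is chr10:60626129-60626428 and the second chr10:60622929-60623228, both read on the gene's strand from GRCm38, within introns, and chosen as the 300 bases of their peak with the most fragment ends of Sertoli-like nuclei. The first held 37 ends from Sertoli-like nuclei and 29 from the others, and the second 108 and 100, as counts not scaled to the size of the classes. The Cldn11 sequence is the 250 bases before its RefSeq start on the plus strand, chr3:31149670-31149919 (GRCm38.p6).
Cdh23 intronic window 1: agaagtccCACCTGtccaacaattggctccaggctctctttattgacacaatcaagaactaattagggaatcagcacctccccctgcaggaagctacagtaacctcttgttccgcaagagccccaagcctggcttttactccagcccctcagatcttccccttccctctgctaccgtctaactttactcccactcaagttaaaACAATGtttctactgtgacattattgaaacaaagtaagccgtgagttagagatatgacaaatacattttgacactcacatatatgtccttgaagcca
Cdh23 intronic window 2: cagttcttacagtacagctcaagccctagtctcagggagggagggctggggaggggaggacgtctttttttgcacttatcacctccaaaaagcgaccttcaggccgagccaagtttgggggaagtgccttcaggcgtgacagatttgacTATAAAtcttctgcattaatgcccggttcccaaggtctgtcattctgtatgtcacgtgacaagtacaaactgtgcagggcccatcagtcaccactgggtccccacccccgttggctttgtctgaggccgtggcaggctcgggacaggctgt
Cldn11 upstream bases: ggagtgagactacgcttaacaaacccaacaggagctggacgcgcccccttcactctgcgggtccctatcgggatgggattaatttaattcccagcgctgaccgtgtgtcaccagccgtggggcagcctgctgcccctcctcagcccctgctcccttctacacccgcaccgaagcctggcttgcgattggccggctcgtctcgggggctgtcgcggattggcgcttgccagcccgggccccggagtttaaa
The first window held a CACCTG at base 9 and an ACAATG at base 204, letters that the middle 300 bases of 16.8% and 13.0% of the 11525 deposited peaks on chromosomes 8 and 10 also hold. The second held TATAAA, found in 13.3% of those peaks, and the Cldn11 stretch held none of the 6 motifs.

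In germ-like nuclei the member furthest above the rest was Cdh1, the gene of E-cadherin, which epithelia and primordial germ cells share. The level was 117 CPM against 4.57 CPM in all other nuclei, a ratio of 25.6 (22.5 to 29.2), and 2400 of its 2658 UMIs lay in germ-like nuclei. UMIs were found in 75.1% of germ-like nuclei, and after thinning in 22.1% (19.5 to 24.9%), against 0.527% (0.307 to 0.843%) of progenitor/contractile-like nuclei. Erythroid-like nuclei came next at 34.0 CPM, and this class also carried 187 CPM of summed germ cell markers, against 1413 CPM in germ-like and 32.7 CPM in progenitor/contractile-like nuclei. With the automatic doublet threshold the erythroid-like value was 4.73 CPM and the germ-like value 154 CPM. Where 10% of UMIs were subtracted as free RNA, the ratio was 88.1.

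Cdh19, a type II cadherin best known from the Schwann cell lineage, was shared by the cells of the cords. It measured 16.2 CPM in germ-like and 14.2 CPM in Sertoli-like nuclei, a ratio of 1.14 (0.930 to 1.39), and at most 1.46 CPM in each of the other classes. The germ-like value was 6.05 times that of all other nuclei (4.98 to 7.39). No cluster scored highest for neural crest markers. Cdh10, Cdh12, Cdh18 and Cdh20, also type II cadherins, measured 22.0, 28.4, 36.3 and 9.99 CPM in germ-like nuclei, and for Cdh10, Cdh12 and Cdh18 another class was higher. Cdh20 was highest in surface epithelium-like nuclei, at 1.11 times the germ-like level with an interval that includes 1 (0.817 to 1.48), and 1 nucleus held 24.6% of those UMIs. With clusters from chromatin alone it was 12.5 CPM in germ-like and 10.7 CPM in surface epithelium-like nuclei.

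The germ-like class split further at resolution 0.6 into 531 nuclei led by Lhx1, with 250 CPM of Mki67, and 443 nuclei led by 1700054O05Rik, with 115 CPM. The former scored highest for germ cell markers (1778 CPM summed, against 1181 CPM in the latter), but Lhx1 is among the mesonephric duct markers, whose sum was 135 against 32.2 CPM, so that it was left without a cell type name at this resolution. Of the 23 members with 20 UMIs or more in the pair, 12 were at least 2-fold higher in the nuclei with less Mki67 (52.2%) and 3 were at most 0.5 (13.0%), where all genes gave 16.9% and 3.46%. Cdh3 (126 against 46.0 CPM), Cdh4 (58.0 against 25.8 CPM) and Cldn5 (4.01 against 0.797 CPM) were the 3 that were higher in the nuclei with more Mki67. Cdh1 was 156 CPM in these and lower in the others, with a ratio of the lower-Mki67 to the higher-Mki67 nuclei of 0.589 (0.543 to 0.639). Among the 12, Cdh23 was 39.1 against 3.76 CPM, Cdh12 42.7 against 6.02 CPM, Cdh19 24.3 against 3.38 CPM and Cdh11 365 against 138 CPM.

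The nuclei with less Mki67 also had more RNA of other cells' markers and more nuclei over the automatic doublet threshold. Progenitor markers summed to 466 CPM in them and 191 CPM in the others, and 37.7% against 11.7% of nuclei lay over that threshold. With the threshold applied, the germ-like level was lower for some members and not for others. Cdh11 went from 277 to 34.7 CPM, Cdh23 from 25.3 to 2.44 CPM, Cdh6 from 17.0 to 2.89 CPM and Cdh8 from 6.77 to 1.72 CPM. Cdh12 measured 28.4 CPM before and 30.8 CPM after, Cdh19 16.2 and 19.5 CPM, Cdh18 36.3 and 42.8 CPM, Cdh10 22.0 and 23.2 CPM, and Cdh4 38.4 and 44.8 CPM. The germ-like values of Cdh11, Cdh23, Cdh6 and Cdh8 thus rested on the doublet setting, and the part of doublets in the difference between the clusters was not tested.

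The largest ratio between classes among the 122 peaks compared near members was that of an intronic peak of Cdh1, shown here because it was open in the class that holds the RNA. It lies at chr8:106606199-106607183, centred 3340 bases after the start, and gave 53 fragments in germ-like nuclei (6.81 per 1000000 fragments of the class, FPM) against 9 in the other large classes (0.313 FPM), a ratio of 21.8 (10.6 to 50.2). The 300 bases with the most germ-like fragment ends, chr8:106606611-106606910 on the plus strand of GRCm38, held 76 ends from germ-like nuclei and 6 from others, also unscaled.
Cdh1 intronic window: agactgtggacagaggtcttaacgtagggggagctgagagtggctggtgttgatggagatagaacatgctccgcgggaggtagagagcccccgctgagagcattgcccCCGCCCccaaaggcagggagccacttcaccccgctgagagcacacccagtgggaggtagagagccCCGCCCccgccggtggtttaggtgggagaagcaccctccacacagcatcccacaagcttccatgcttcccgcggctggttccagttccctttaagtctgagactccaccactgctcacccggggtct
The capitals mark 2 GC boxes on the opposite strand, at bases 109 and 174, which 19.5% of the middle 300 bases of deposited peaks on chromosomes 8 and 10 contained, and its GC content was 62.0%. The start of Cdh1 differed less: germ-like nuclei had 7.59 FPM at the promoter, 3.07 times the other large classes (2.14 to 4.40).

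Leydig-like nuclei combined low levels of the widely used cadherins with higher levels of 4 others. Cdh9, a type II cadherin known mainly from neurons and kidney, measured 16.2 CPM in Leydig-like nuclei (143 of its 186 UMIs) and 0.631 CPM elsewhere, a ratio of 25.7 (18.1 to 37.0), with surface epithelium-like nuclei next at 1.81 CPM. Only 8.44% of Leydig-like nuclei held a UMI, 2.78% after thinning (1.75 to 4.18%), against 0.206% of germ-like nuclei (0.0249 to 0.741%). The ratio was 15.5 with no doublets removed and 55.3 at the automatic threshold. Cdh8 was 55.4 CPM, second to the Pax8 cluster, and Cdh4, the gene of R-cadherin, was 50.8 CPM, beside 48.7 CPM in the Pax8 cluster (ratio 1.04, 0.786 to 1.41) and 38.4 CPM in germ-like nuclei. Cdh13, whose product T-cadherin is held by a lipid anchor and lacks the inner part that binds catenins, was 72.4 CPM, second to endothelial-like nuclei at 103 CPM.

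The Cdh9 promoter is shown because most of its UMIs lay in Leydig-like nuclei. The 250 bases before its RefSeq start lie at chr15:16728665-16728914 on the plus strand (GRCm38.p6), a start 159 bases from the one used for the fragment counts.
Cdh9 upstream bases: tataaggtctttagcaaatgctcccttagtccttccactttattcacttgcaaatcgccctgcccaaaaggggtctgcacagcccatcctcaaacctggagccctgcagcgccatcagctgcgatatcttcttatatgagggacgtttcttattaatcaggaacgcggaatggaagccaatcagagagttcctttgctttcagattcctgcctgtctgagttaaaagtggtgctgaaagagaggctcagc
No motif of the 6 was present. AAGGTCA was held by 4.72% of all 32851 RefSeq promoters (250 bases before to 50 after the start) and by 1 of the 32 members with an entry, Cdh18. Promoters were counted by entry and members by gene over all their starts, so these are not like measures. Within 1 kb of the Cdh9 start Leydig-like nuclei had 4.24 FPM, 2.63 times the other large classes (1.32 to 4.88, 13 fragments).

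The study compared progenitors with fetal Leydig cells, and held contractile cells in a cluster of their own. The progenitor/contractile-like class used here pools contractile-like nuclei, so the sets differ. Members lay on both sides of the comparison. Of the 25 compared members, 9 were at least 2-fold higher in progenitor/contractile-like nuclei and 5 were at most 0.5, where all 17046 genes gave 17.3% and 13.9%. The median log2 ratio, with 1 CPM added to each value, was 0.28 over the members and -0.01 over all genes. That median turned to -0.03 with no doublets removed and to -0.18 with stricter minimums on genes and fragments. In both settings the clustering also gave contractile-like nuclei a class of their own, so that the class compared with Leydig-like nuclei was then narrower, and the part of each change was not tested.

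The largest class held more Cdh11, Cdh6, Cdh3 and Cdh2. Cdh11 was 1770 CPM against 384 CPM, a ratio of 4.61 (4.46 to 4.78), Cdh6 was 79.4 against 12.8 CPM (6.21, 5.13 to 7.57) and Cdh3 was 27.0 against 6.34 CPM (4.25, 3.23 to 5.69). Cdh2 was 155 against 47.2 CPM, a ratio of 3.28 (2.97 to 3.64). Cdh24, which was detected in every class between 2.43 and 18.7 CPM, was 15.5 against 6.68 CPM (2.31, 1.75 to 3.10), and Cldn1 was 8.18 against 3.40 CPM (2.41, 1.63 to 3.67). In progenitor-like nuclei with little Mki67, set apart from contractile-like nuclei at resolution 0.6, Cldn1 was 5.68 CPM. The other 3 rested on few Leydig-like UMIs: Cdh20 had 62 UMIs against 1, Cdh17 had 35 against 5 and Cdh26 had 19 against 0. The order of Cdh3 was reversed with no doublets removed, where contractile-like nuclei, at 86.5 CPM, formed a class of their own. Leydig-like nuclei then held 12.9 CPM of Cdh3, more than the 7.87 CPM of the progenitor-like class. Cdh11, Cdh6 and Cdh2 kept their order in that setting.

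The 5 members lower in progenitor/contractile-like nuclei were the Leydig-like set and Cdh23. Cdh9 was 0.125 CPM against 16.2 CPM, Cdh8 1.34 against 55.4 CPM (ratio 0.0241, 0.0163 to 0.0345), Cdh4 5.60 against 50.8 CPM (0.110, 0.0900 to 0.134) and Cdh13 8.10 against 72.4 CPM (0.112, 0.0948 to 0.132). Cdh23 was 2.30 against 4.98 CPM (0.461, 0.304 to 0.701), both far under its Sertoli-like level. Cdh1 gave 3.67 CPM in the former class against 3.74 CPM in the latter (0.983, 0.652 to 1.51), and Cldn11 and Cldn12 gave 0.756 (0.433 to 1.36) and 0.726 (0.565 to 0.938).

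**Figure D3:**
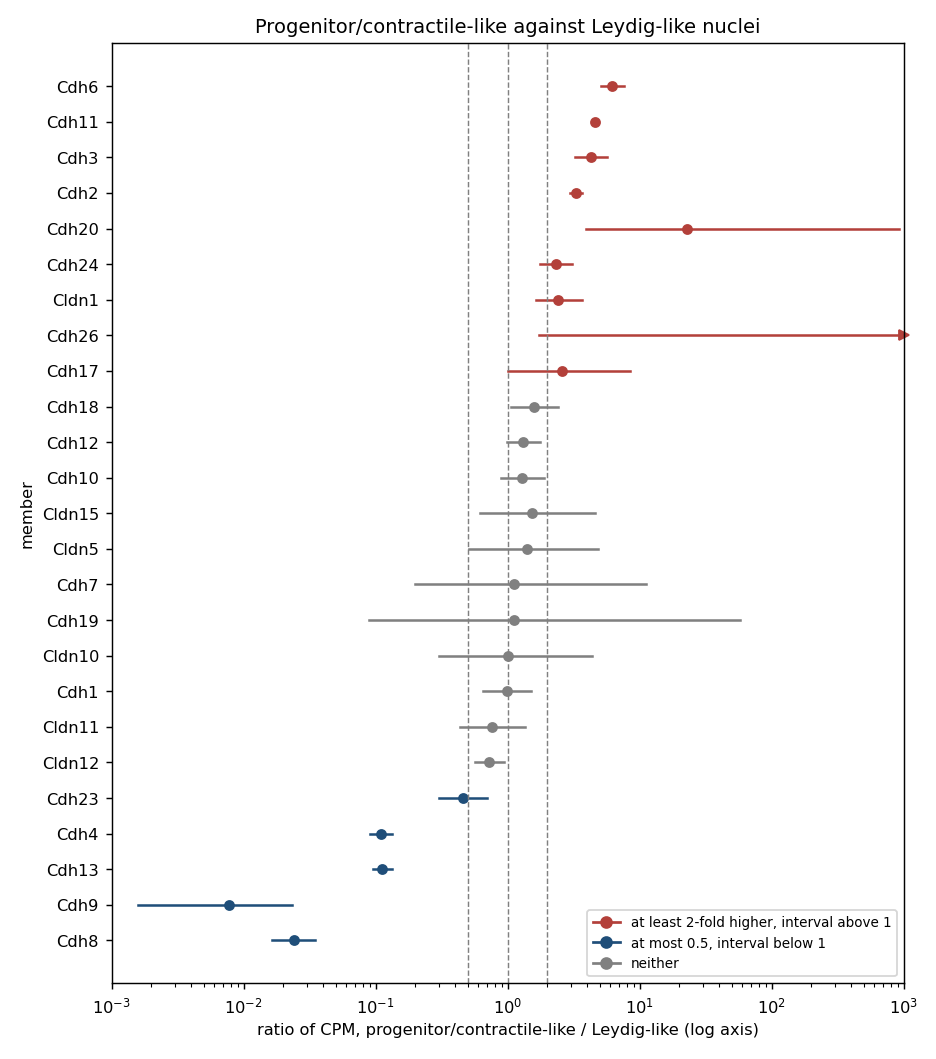
Ratio of CPM in progenitor/contractile-like to Leydig-like nuclei (log axis) for the 25 compared members, sorted by log2 ratio with 1 CPM added; bars are 95% counting intervals, the arrow marks an interval with no upper bound, and dashed lines mark 0.5, 1 and 2. Cdh6, Cdh11, Cdh3 and Cdh2 sit to the right and Cdh4, Cdh13, Cdh9 and Cdh8 to the left.

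Cdh11 itself, the type II cadherin of mesenchyme, was highest in mesonephric mesenchyme-like nuclei at 3142 CPM, 1.77 times (1.74 to 1.81) the progenitor/contractile-like level. Surface epithelium-like nuclei had 1684 CPM and pericyte-like nuclei 1510 CPM, whereas endothelial-like nuclei had 623 CPM and every other class between 263 and 506 CPM. After thinning, a Cdh11 UMI was found in 99.0% of mesonephric mesenchyme-like nuclei (97.4 to 99.7%), 91.0% of surface epithelium-like and 89.8% of progenitor/contractile-like nuclei, against 28.3% of Leydig-like, 17.5% of Sertoli-like and 17.5% of germ-like nuclei. At the automatic doublet threshold the germ-like level was 34.7 CPM. Per kb of gene span its highest level was 20.5 CPM, next to 16.7 for the short Cldn5, and 5.96 for Cdh3, 2.61 for Cdh2 and 1.75 for Cdh1.

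Progenitor/contractile-like nuclei were not uniform. At resolution 0.6 the place of the mixed cluster was taken by 1456 progenitor-like nuclei with little Mki67 and 1075 contractile-like nuclei, whose summed contractile markers were 540 CPM against 188 CPM. Of 17 members with 20 UMIs or more in the pair, 5 were at least 2-fold higher in contractile-like nuclei (29.4%) and 3 were at most 0.5 (17.6%), where all 13998 genes gave 3.85% and 4.34%. Cdh3, the P-cadherin gene, was 53.6 CPM in contractile-like and 6.52 CPM in progenitor-like nuclei, a ratio of 8.22 (6.26 to 10.9), so that the progenitor-like level was close to the 6.34 CPM of Leydig-like nuclei. Cdh6 was 136 against 53.3 CPM (2.54, 2.28 to 2.84), Cldn1 14.1 against 5.68 CPM (2.49, 1.77 to 3.55), Cdh18 5.21 against 2.31 CPM (2.25, 1.28 to 4.03) and Cdh20 2.38 against 1.16 CPM, whose interval of 0.898 to 4.91 includes 1. Cdh2 was lower in contractile-like nuclei, 91.7 against 191 CPM (0.479, 0.436 to 0.525), as were Cdh10 (0.365, 0.197 to 0.641) and Cdh4 (0.354, 0.182 to 0.644). Cdh11 was 1840 CPM in contractile-like and 1844 CPM in progenitor-like nuclei, a ratio of 0.998 (0.975 to 1.02).

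**Figure D4:**
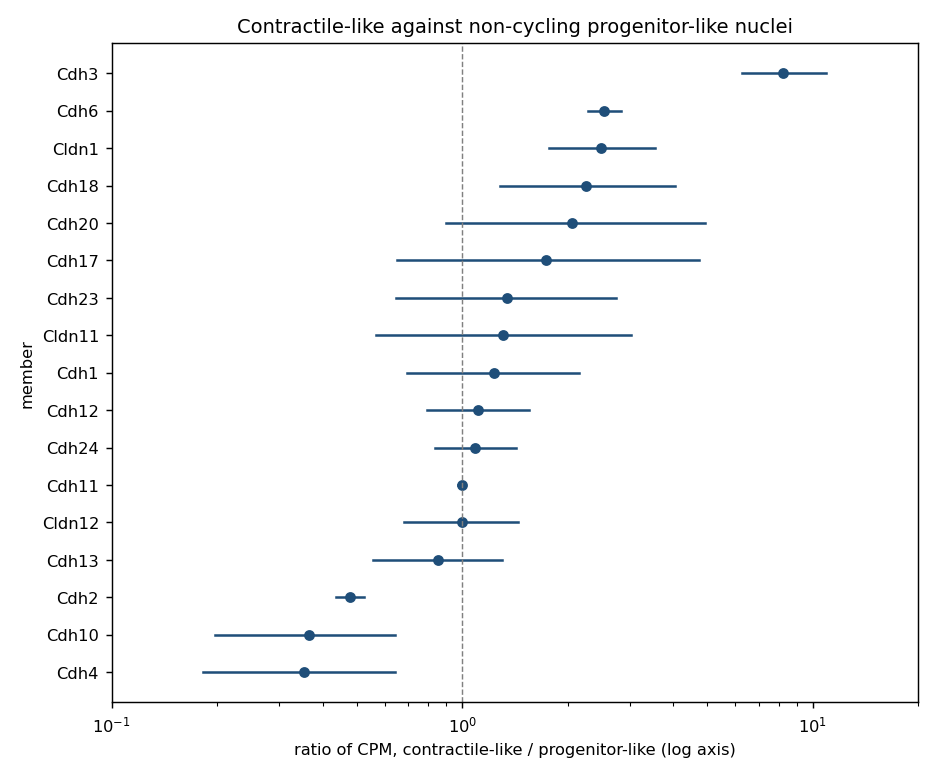
Ratio of CPM in contractile-like to progenitor-like nuclei with little Mki67 (log axis) for the 17 members with 20 UMIs or more in the pair; points are ratios, bars 95% counting intervals and the dashed line marks 1. Cdh3 stands at 8.22, Cdh11 on the line, and Cdh2, Cdh10 and Cdh4 below 0.5.

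The cycling progenitor-like cluster, with 628 CPM of Mki67 against 94.0 CPM in the mixed cluster, was compared in the same way. Of 19 members with 20 UMIs or more in the pair, 0 were at least 2-fold higher in the mixed cluster and 2 were at most 0.5 (10.5%), Cdh18 and Cdh20, where all 14799 genes gave 2.79% and 4.30%. Cdh18 was 10.4 CPM in it and 3.47 CPM in the mixed cluster, a ratio of mixed to cycling of 0.333 (0.233 to 0.474), and Cdh20, Cdh13 and Cdh4 gave 0.372, 0.524 and 0.527. Cdh10 gave 0.648 (0.456 to 0.927) and Cdh3 0.769 (0.654 to 0.904), whereas Cdh11 gave 1.14 (1.11 to 1.16), Cdh6 1.31 (1.18 to 1.45) and Cldn1 1.49 (1.07 to 2.10). At resolution 0.6, 10.9% of the cycling progenitor-like nuclei lay over the automatic doublet threshold (median 8960 UMIs). The shares were 1.72% of the other progenitor-like (5978 UMIs) and 5.12% of contractile-like nuclei (5756 UMIs). Cdh18 and Cdh20 measured 36.3 and 9.99 CPM in germ-like nuclei, and the part of doublets in these differences was not tested.

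Cdh3 had its own highest level in surface epithelium-like nuclei, the mesothelial cover of the testis. It was 277 CPM there against 47.0 CPM in all other nuclei, a ratio of 5.89 (5.54 to 6.26), with Sertoli-like and germ-like nuclei next at 77.7 and 77.3 CPM. Thinned to equal depth, 38.8% of surface epithelium-like nuclei held a UMI (34.7 to 43.0%), 16.3% of germ-like, 12.7% of Sertoli-like and 0.506% of Leydig-like nuclei. Cdh7 was lower but more limited to the class, with 23.7 CPM against 1.60 CPM (14.9, 11.5 to 19.3) and germ-like nuclei next at 5.02 CPM. As the mean of each nucleus' CPM its ratio was 25.2. Cdh6 was 234 CPM, not separable from the 244 CPM of the Pax8 cluster (ratio of the latter to the former 1.04, 0.912 to 1.19), and Cdh10 was 36.6 CPM, 2.95 times all other nuclei (2.52 to 3.45). Cdh1, the classical epithelial cadherin, was 3.62 CPM, at the level of the interstitium.

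Within this class a finer cluster of 89 nuclei, led by Mybpc1 and carrying surface epithelium markers at 1970 CPM (1891 CPM in the other finer cluster of 474), was set against the other. Of 17 members with 20 UMIs or more in the pair, 7 were at least 2-fold higher in the 89 nuclei (41.2%) and 3 were at most 0.5 (17.6%), where all 11848 genes gave 4.61% and 7.06%. Cdh18 was 138 CPM in it and 3.70 CPM in the others, a ratio of 37.4 (22.5 to 66.2), and Cdh8 was 83.6 against 2.61 CPM (32.1, 17.3 to 64.7). Cdh20 was 37.5 against 5.65 CPM, Cdh7 56.8 against 17.0 CPM, Cdh12 22.5 against 6.31 CPM and Cdh4 18.2 against 8.05 CPM, and the interval of the other one, Cdh1, included 1 (0.842 to 6.53). Cdh6 went the other way, 34.3 against 274 CPM (0.125, 0.0852 to 0.177), and Cdh13 and Cdh23 were lower on few UMIs, with intervals that included 1. Cdh3 and Cdh2 differed less, with ratios of 1.17 (1.03 to 1.34) and 0.946 (0.810 to 1.10). The clusters were drawn from these same nuclei, though not from the RNA of the members. Other marker scores (mean z over clusters) also differed between the 89 and the 474 nuclei. They were -0.267 against 0.596 for progenitor and -0.281 against 0.747 for contractile markers. For mesonephric duct markers they were 0.532 against -0.338, and for supporting-cell markers 1.59 against 1.15. The part of other cells' RNA in these differences was not tested.

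Mesonephric mesenchyme-like nuclei had 2 members past 4-fold besides their high Cdh11. Cdh18 was 82.1 CPM against 15.2 CPM elsewhere (5.41, 4.70 to 6.20), but only 13.5% of the nuclei held a UMI and 1 nucleus held 11.3% of the UMIs. Germ-like nuclei were next at 36.3 CPM, and after thinning the shares were 7.12% (4.79 to 10.1%) and 6.48% (5.02 to 8.22%). With clusters from chromatin alone its ratio was 2.14, and its highest class was then another: 39.2 CPM in germ-like and 33.5 CPM in mesonephric mesenchyme-like nuclei. The latter class held 1192 nuclei under that setting, against 394 here, and scored nearly as high for contractile markers, so that it was a wider class. Cldn1, a barrier claudin of epidermis, was 30.5 CPM against 4.60 CPM (6.62, 5.22 to 8.33), with progenitor/contractile-like nuclei next at 8.18 CPM. Thinned shares of Cldn1 were 7.12% (4.79 to 10.1%) in mesonephric mesenchyme-like, 1.30% (0.940 to 1.76%) in progenitor/contractile-like and 0.720% (0.290 to 1.48%) in germ-like nuclei.

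The Cldn1 promoter is shown as that of a claudin with its highest RNA in mesenchyme-like nuclei. Its 250 upstream bases lie at chr16:26371840-26372089 on the minus strand (GRCm38.p6).
Cldn1 upstream bases: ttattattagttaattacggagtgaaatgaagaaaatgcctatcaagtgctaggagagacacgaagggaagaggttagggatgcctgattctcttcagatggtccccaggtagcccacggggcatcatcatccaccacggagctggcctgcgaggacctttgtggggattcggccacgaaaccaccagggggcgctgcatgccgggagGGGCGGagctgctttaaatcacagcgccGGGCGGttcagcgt
The capitals are 2 GC boxes, at -42 and -14 from the start. GGGCGG was found in 35.7% of all promoters and in those of 16 of 32 members, and TATAAA in 13.6% of all promoters and in 1 member, Cldn2, at -35. Again promoters were counted by entry and members by gene over all their starts, so the shares are not like measures. The Cldn1 start was most open in mesonephric mesenchyme-like nuclei, at 7.79 FPM, yet the ratio to the other classes was 1.48 (0.775 to 2.60), which includes 1.

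The cluster led by Pax8, of 87 nuclei, had 3 members past 4-fold. Cdh8 was 157 CPM against 10.6 CPM (14.9, 12.5 to 17.5), with Leydig-like nuclei next at 55.4 CPM, and 18.4% of its nuclei held a UMI after thinning (10.9 to 28.1%), against 8.47% of Leydig-like (6.62 to 10.6%) and 0.242% of Sertoli-like nuclei (0.0293 to 0.871%). Cdh12 was 84.7 CPM against 13.9 CPM (6.09, 4.88 to 7.52), on 15 nuclei, 1 of which held 19.1% of the UMIs. Its span contains 7 annotated genes on the same strand, whose reads could be shared with it. Cdh6 was 244 CPM against 53.9 CPM (4.53, 3.99 to 5.12), an interval that reaches below 4. Surface epithelium markers summed to 1759 CPM in the cluster, of which Pdgfc gave 1475 CPM and Podxl 248 CPM, both higher there than in any other class. The other 4 markers of that list were highest in surface epithelium-like nuclei, such as Aldh1a2 at 429 CPM and Upk3b at 102 CPM. The cluster also had the second highest Cdh23, and 26.1 CPM of Cdh1. Cdh16, a cadherin of kidney tubules, reached 10 UMIs in all, 4 of them in this cluster, and fell under the minimum.

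Endothelial-like nuclei had Cldn5, the main claudin of blood vessels, and Cdh13. Cldn5 was 23.6 CPM against 1.23 CPM (19.2, 13.5 to 27.1), with UMIs in 34.7% of 95 nuclei. In nuclei of at most 50000 UMIs, which leaves out 7 endothelial-like nuclei, it was 33.4 CPM. Cdh13 was 103 CPM against 20.2 CPM (5.11, 4.44 to 5.86), and 1 nucleus held 15.4% of these UMIs. The finer clusters differed in Cdh13: 63 nuclei led by Klhl4 had 172 CPM and 32 nuclei led by Gja5, a gene of arteries, had 41.0 CPM, a ratio of 4.19 (3.05 to 5.84). Of the former 34.9% and of the latter 37.5% lay over the automatic doublet threshold. The part of doublets, and of the nuclei over 50000 UMIs, in this difference was not tested. At the automatic doublet threshold the ratios to all other nuclei were 40.9 for Cldn5 and 8.94 for Cdh13.

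Immune-like nuclei had Cdh17, an intestinal cadherin, at 10.2 CPM against 0.629 CPM (16.3, 6.22 to 36.2). This rested on 7 UMIs in 3 nuclei, 5 of them in 1 nucleus, and the ratio was 2.36 with clusters from chromatin alone, where the immune-like cluster was a mixed one of 260 nuclei that also scored for endothelial markers and had the erythroid genes Kel and Rhag among its leading genes. Cldn13 fell under the minimum with 25 UMIs in all, but 10 of them lay in the 46 erythroid-like nuclei (24.3 CPM, 11.7 to 44.7), against 0.196 CPM in all other nuclei; it was singled out after its values were seen. Cldn7 had 45 UMIs, 20 of them in Leydig-like nuclei.

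Of the 25 compared members, 10 did not pass 4-fold in their highest class: Cdh2, Cdh4, Cdh10, Cdh11, Cdh20, Cdh24, Cdh26, Cldn10, Cldn12 and Cldn15. Whether any of them passed in another class was not tested. Cldn12, one of the claudins least tied to a cell type, ranged from 4.39 to 14.7 CPM over the 11 classes, highest in germ-like nuclei and 1.06 times (0.864 to 1.31) the Sertoli-like level. Cldn10 had 56 UMIs, Cldn15 61 and Cdh26 74, and none had more than 2.93 CPM in any class. Cldn3 and Cldn4, claudins of many epithelia, and also Cldn6 and Cldn19 had 2 to 6 UMIs in all. Cldn17 and Cldn24 had 0 UMIs of 76994664, and Cldn8, Cldn9 and Cldn22 had 1 each. With 3 UMIs taken as the limit for a count of 0, in place of the exact Poisson interval used elsewhere, a count of 0 allows up to 0.0390 CPM.

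Chromatin at the members' starts was compared in classes drawn from RNA alone, so that the chromatin had no part in placing nuclei. Unique fragments with an end within 1 kb of the gene start were counted per class (FPM), for the 6 classes of 300 nuclei or more. Of the 9 members that were restricted to 1 of these classes and had 20 such fragments or more, 6 were most open in the class with the most RNA (66.7%), beside 57.0% of the 2370 genes that met the same conditions. The 6 were Cdh1, Cdh3, Cdh9, Cdh23, Cldn1 and Cldn11. For 5 of them the interval lay above 1: the ratio to the other classes was 3.07 for Cdh1, 2.75 for Cldn11, 2.63 for Cdh9, 2.21 for Cdh23 (1.35 to 3.50) and 1.85 for Cdh3 (1.31 to 2.56). Some smaller classes, not compared, had higher values on few fragments. Cdh23 had 15.7 FPM in immune-like and 5.97 in endothelial-like nuclei (4 fragments each), beside 5.52 in Sertoli-like nuclei. Cldn11 had 12.0 in the Pax8 cluster (5 fragments), beside 9.72. Cldn1 was also higher in 2 small classes, on 2 fragments each, and Cdh1, Cdh3 and Cdh9 in none. RNA ratios were larger than promoter ratios, such as 25.5 for Cdh23 against all other nuclei, small classes included. Members entered only with an RNA ratio of at least 4, and no such limit was set on chromatin. Nothing is therefore read from that difference.

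The other 3 were Cdh7, Cdh18 and Cdh19. The Cdh7 start was most open in germ-like nuclei at 8.23 FPM (4.01 times the rest, 2.77 to 5.81), with surface epithelium-like nuclei, which hold its RNA, next at 6.60. Cdh19 was most open in Sertoli-like nuclei at 1.99 FPM, with germ-like nuclei at 1.16, on 23 fragments in all. Cdh18 was most open in Leydig-like nuclei at 5.55 FPM, and the ratio in its own class was 0.858 (0.310 to 1.91). The Cdh18 start counted, at base 23036463 of chromosome 15, lies inside its annotated span, which begins at base 22549022. Any start further upstream was not counted. Cldn5, whose class was too small for the comparison, had 13.4 FPM in endothelial-like nuclei (6.14 to 25.5, 9 fragments) and 10.9 in germ-like nuclei (8.73 to 13.5), although its RNA was 2.05 CPM in the latter. The peak over its start was likewise 4.26 times as open in germ-like nuclei as in the other large classes (2.71 to 6.72).

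**Figure D5:**
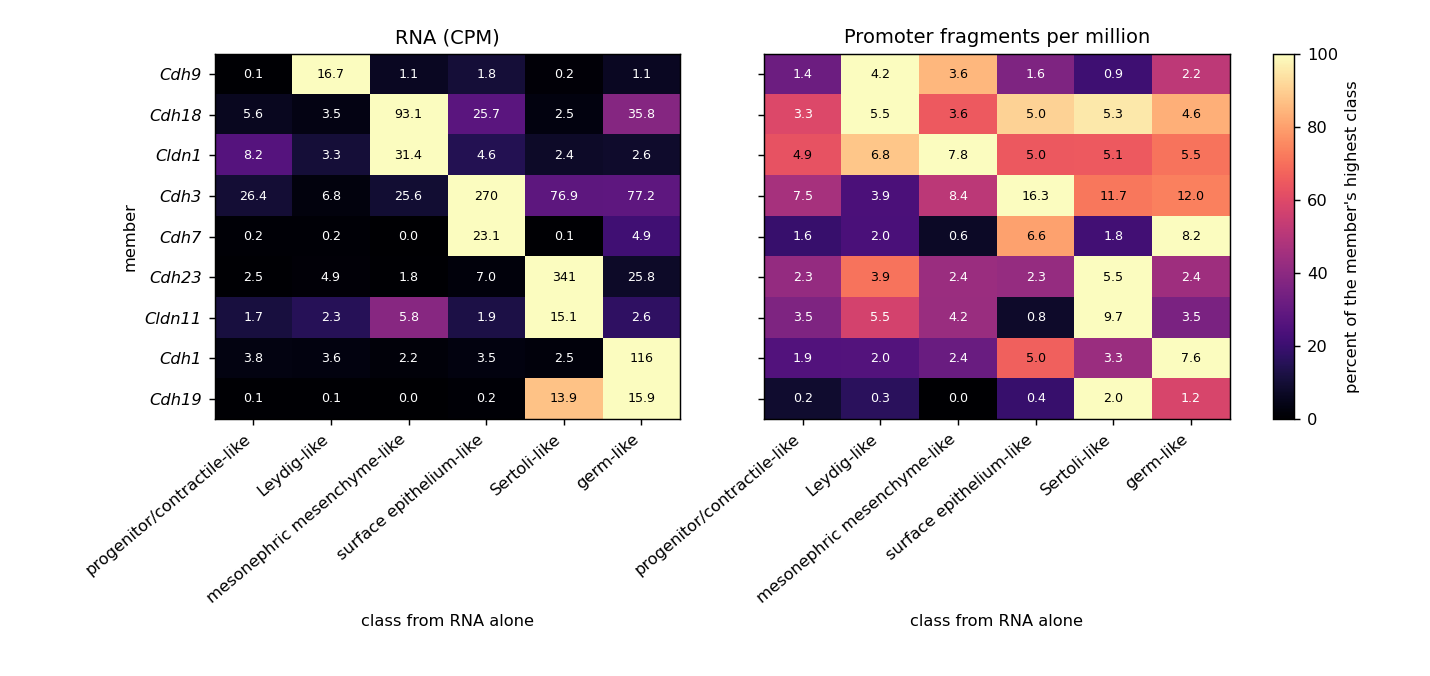
Left, RNA in CPM, and right, promoter fragments in FPM, for the 9 members compared (rows) in 6 classes drawn from RNA alone (columns); colour is the percentage of the member's own highest value and numbers are the values. The RNA panel has 1 bright cell in most rows, and the promoter panel is brighter across each row. The members were chosen by an RNA ratio of at least 4, so the contrast of the panels was partly set by that choice.

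Peaks inside the members and within 10 kb of them were compared in the same way. Of 122 such peaks with 50 fragments or more, 14 were at least 4-fold more open in 1 class than in the rest (11.5%), beside 10.2% of all 66111 peaks. For 8 of the 14, at Cdh4, Cdh6, Cdh13, Cdh24 and Cldn5, the class with the most RNA was too small to be among those compared, so that no match was possible. For 4 of the others the peak was most open in the class with the most RNA of the gene: the Cdh1 peak above, the Cdh23 peaks of both windows and a Cldn12 peak of germ-like nuclei that overlapped an exon, at chr5:5504244-5505138 (8.10 against 0.487 FPM). The share of such matches over all peaks was not computed, and nothing is read from this count. The Cdh23 peaks of the windows lay 70217 and 73354 bases after the start and were 9.51 (5.56 to 16.5) and 6.13 (4.48 to 8.38) times as open in Sertoli-like nuclei. A further intronic peak of Cdh23, at chr10:60538994-60539861, was 5.78 times as open in germ-like nuclei (3.33 to 10.2). In Cdh13, whose endothelial-like nuclei were not part of the comparison, 4 intronic peaks were 4.71 to 5.69 times as open in progenitor/contractile-like nuclei as in the other large classes, and its RNA there was 8.10 CPM. A peak 1275 bases before Cdh6 was 4.56 times as open in progenitor/contractile-like nuclei (2.96 to 7.23), and an intronic peak of Cdh4 5.62 times in Leydig-like nuclei (2.94 to 10.4, 17 fragments), which held the most Cdh4 RNA (50.8 CPM) in the classes drawn from both assays, though not in those from RNA alone.

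Genes of the same junctions were read from lists chosen by function. Of 7 catenins, which link cadherins to actin, 3 had a highest class at least 4-fold over the rest, where the share was 28.4% of all genes tested and 43.1% of those at least as long as the median compared member. These lists are small, and their counts are descriptions. Ctnna2 and Ctnna3, alpha-catenins, were 4315 and 2638 CPM in Sertoli-like nuclei, 13.4 and 11.8 times all other nuclei, and Ctnnd2, a delta-catenin, was 252 CPM in germ-like nuclei (8.49). The general Ctnna1 and Ctnnb1 were near even, with highest classes at 1.17 and 1.75 times the rest. All 4 desmosome genes passed 4-fold: Dsg2, Dsc2 and Dsp were highest in Sertoli-like nuclei, at 6.33, 9.92 and 10.4 times the rest, and Pkp2 in germ-like nuclei at 10.4.

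Among 15 tight junction genes with 50 UMIs or more, 5 passed 4-fold, a share near the 28.4% of all genes. Jam2 and Cgn, a junctional adhesion molecule and cingulin, were highest in Sertoli-like nuclei at 7.58 and 5.55 times the rest, the class in which Cldn11 was highest. Ocln (occludin) was highest in the Pax8 cluster at 8.83 times, Magi2 in surface epithelium-like nuclei at 5.70 times, and Marveld3 in germ-like nuclei with 51 UMIs in all. The scaffold gene Tjp1 was highest in endothelial-like nuclei, at 2.49 times the rest. Of 4 nectin and afadin genes with enough UMIs none passed, Nectin1 coming nearest with 126 CPM in Leydig-like nuclei (3.71 times). Of 6 factors known for repressing Cdh1, only Twist2 passed, in mesonephric mesenchyme-like nuclei (78.9 CPM, 6.85 times), and Snai2 and Twist1 were highest in progenitor/contractile-like nuclei, 3.58 (2.56 to 5.14) and 3.81 (2.60 to 5.79) times the Leydig-like level. In the same comparison Zeb1 was 1.98 (1.92 to 2.04), Twist2 1.21 (1.01 to 1.46) and Snai1 1.15 (0.655 to 2.12), whereas Zeb2, the most abundant of the 6, was 0.798 (0.786 to 0.810).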

How the data were processed

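RNA and open chromatin were measured in the same nuclei of frozen whole testes, 1 library each. The sources used here do not state the number of embryos. The authors' deposited files hold raw counts: for each barcode, UMIs of genes and transposase cuts in peaks, and a list of unique chromatin fragments, made with Cell Ranger ARC 2.0.1 on mm10 per the labels. No quality, doublet or free RNA filter had been applied to them. The filters of the study's methods were repeated on the 9833 barcodes: at least 500 genes, at most 10% mitochondrial, 10% ribosomal and 0.5% haemoglobin UMIs, 250 to 25000 fragments at peaks and at least 20% of fragments in peaks. They left 7668 nuclei. The 470 with the highest Scrublet scores (6.13%, run in scanpy 1.11.5) were removed as doublets in place of the study's caller, no blacklist was applied, and free RNA was left in, its subtraction being an alternative.

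Nuclei were clustered on both assays with Seurat 5.3.0 (30 components, 2000 variable genes, resolution 0.3) and classed by marker lists. UMIs were summed per class. CPM carry exact Poisson intervals, ratios exact conditional binomial intervals and shares Clopper-Pearson intervals, all at 95% and for counting error only. Nuclei are not replicates and no test was run. Gene spans came from GENCODE vM21, matched by ID for 32158 of 32285 genes. Chromatin was counted as unique fragments with an end within 1 kb of a gene start, since deposited cuts come in pairs (87.1% of nonzero peak counts were even). Promoter sequences came from the RefSeq table of GRCm38.p6, which held 32 of the 45 members, and peak windows from its genome. No protein sequences were used here. Of the compared members, Cdh8, Cdh11, Cdh12, Cdh13, Cdh18, Cdh19 and Cdh20 have 1 to 7 genes annotated on the same strand within their span, which could share reads with them, so that their levels are uncertain to that extent. edgeR 4.0.16 and DESeq2 1.42.0 gave only the alternative scaling factors of classes. The ratio and interval code was tested on simulated data.

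The members, marker and partner lists and limits were chosen with earlier results of these data known. Members were described one by one if they had at least 50 UMIs and their highest class was at least 4-fold over all other nuclei, or if they were at least 2-fold apart between progenitor/contractile-like and Leydig-like nuclei with an interval that left out 1. Other members, and all values in finer clusters, were added after their values were seen. Alternatives varied doublet removal, clustering, minimums, free RNA, scaling, the pseudocount and the promoter window.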

Additional observations from a re-analysis of the deposited data

How the results depend on the processing

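With 1 library no sample could be left out, and all values compare classes of nuclei within it. No paired analysis was possible because each assay had 1 library and no test was run. The median log2 ratio of the members between progenitor/contractile-like and Leydig-like nuclei changed sign between settings. It was 0.28, and turned to -0.03 with no doublet removal and to -0.18 where each nucleus needed 1000 genes and 1000 peak fragments. It was 0.48 at the automatic Scrublet threshold, 0.16 as the mean of each nucleus' CPM, 0.39 with a pseudocount of 0.1 CPM, and 0.11 and 0.06 with minimums of 10 UMIs and 1 UMI. With no doublet removal, the automatic threshold or the stricter minimums, contractile-like clusters formed a class of their own and were not part of the progenitor class, and the cause of these shifts was not tested. With a minimum of 1 UMI more members were compared. Then 29 members in place of 15 passed 4-fold, and 17 in place of 9 were at least 2-fold higher in progenitor/contractile-like nuclei. Under the other settings run, 14 to 21 members passed 4-fold, and 5 or 6 had the most open promoter in their highest RNA class. In these settings 7 to 12 were higher and 4 to 7 lower in progenitor/contractile-like than in Leydig-like nuclei. Where contractile-like nuclei had a class of their own, progenitor-like nuclei alone were compared. With no doublet removal the Cdh3 level of this narrower class, 7.87 CPM, lay below the Leydig-like 12.9 CPM, the reverse of the main setting. The 15 members named each stayed at or above 4-fold in every setting that gave a value, except Cdh17 at 2.36 and Cdh18 at 2.14 with clusters from chromatin alone, where Cdh18 was highest in germ-like nuclei and 10 of the 15 had a value. The immune-like and mesonephric mesenchyme-like clusters of that setting were mixed and larger, with 260 and 1192 nuclei in place of 68 and 394. As the mean of each nucleus' CPM the ratios of Cdh7, Cdh17 and Cdh18 were 25.2, 30.3 and 8.73, and that of Cdh1 was 15.4 with clusters from chromatin alone. Keeping only nuclei of at most 50000 UMIs, chosen after seeing the data, gave 17 members past 4-fold. Depth limits the claudins most: members under 50 UMIs were not compared.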
